A study of Homo sapiens with 27 samples.

Results

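Integrins are receptors that hold cells to the matrix around them and to other cells, and 10 of their subunit genes were followed here through 27 RNA-seq libraries of drug-resistant prostate cancer cells with and without knockdown of the transcription factor GATA2. The members were chosen by symbol: the alpha subunits ITGA2, ITGA3, ITGA5, ITGA6 and ITGAV and the beta subunits ITGB1, ITGB3, ITGB4, ITGB5 and ITGB8, which are 10 of the 23228 genes in the deposited table, and all 10 were found there. No measured value set that choice, but earlier results of these data were known when it was made. The cells were ARCaPM-DR, 22Rv1-DR and DU145-DR, sublines of established castration-resistant prostate cancer lines that the labels describe as resistant to chemotherapy. Each line carried shGATA2a or shGATA2b, different short hairpin RNAs against GATA2, or a control hairpin, and every one of these 9 groups had 3 replicates.

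An integrin at the cell surface is a pair of 1 alpha and 1 beta subunit, and the pair decides which matrix protein is bound. ITGB1 is the common partner of many alpha subunits. ITGA3 and ITGA6 form laminin receptors, ITGA2 a collagen receptor and ITGA5 the classical fibronectin receptor. ITGB4 pairs with ITGA6 in hemidesmosomes, the junctions that anchor epithelial cells to the basement membrane. ITGAV joins ITGB3, ITGB5 or ITGB8 in receptors for matrix proteins that carry an arginine-glycine-aspartate motif, such as vitronectin and osteopontin, and the pair with ITGB8 is known for activating latent TGF-beta. In prostate tissue ITGA6 and ITGB4 are known as basal cell proteins.

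Values are read counts per gene that the authors scaled to library size, called normalised reads below. Recovered depth ran from 3.44 M to 19.4 M reads, with a median of 12.87 M, and the shallowest library was ARCaPM-DR shGATA2a replicate 3. GATA2 was lower in all 6 knockdown libraries than in all 3 control libraries of every line: 17.3 to 46.6 normalised reads in ARCaPM-DR knockdown libraries against 145 to 173 in controls, 806 to 1738 against 3052 to 4307 in 22Rv1-DR, and 225 to 385 against 925 to 1255 in DU145-DR. GATA2 is 1 of 58 genes with some values that were not whole reads, in its case in 22Rv1-DR and DU145-DR, and 0 of the 10 subunits are among those genes. In control libraries the mesenchymal marker VIM averaged 47215 normalised reads in ARCaPM-DR, 89.9 in 22Rv1-DR and 13011 in DU145-DR. Of the listed mesenchymal markers VIM, ZEB1 and CDH2, limma called 2 higher and 1 lower in ARCaPM-DR than in 22Rv1-DR controls. It called 1 higher and 2 lower in 22Rv1-DR than in DU145-DR controls, and 2 higher and 0 lower in ARCaPM-DR than in DU145-DR. Of all genes 70.3%, 70.5% and 59.9% were called in these comparisons, in that order. KRT5, KRT14 and TP63, markers of basal prostate cells, averaged at most 0.87 in control libraries of every line. No label states separate cultures for the replicates, so a p-value here reflects only the scatter among the libraries tested, which may be technical. Those were the libraries of 1 line for the knockdown and hairpins, and all 27 for comparisons of lines. In such bulk samples, fewer cells of a type and less RNA per cell cannot be told apart.

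Promoters of 3 subunits are printed as examples of those whose transcripts moved with the knockdown, ITGA6 in DU145-DR and ITGA2 and ITGB5 in ARCaPM-DR. ITGB1, which also passed in ARCaPM-DR, had windows that are not printed. For each printed subunit 1 window is shown, although ITGA6 and ITGB5 had others. Each window runs from 250 bases before to 50 bases after a RefSeq transcript start (build GRCh38.p14) and is written 5′ to 3′ on the gene's strand. Capitals mark a match to the letters that GATA factors recognise, searched on both strands as AGATAA or its variant AGATAG, and as TGATAA or its variant TGATAG. The ITGA6 window lies at chr2:172427336-172427635 on the plus strand, the ITGA2 window at chr5:52989102-52989401 on the plus strand, and the ITGB5 window at chr3:124887316-124887615 on the minus strand.
ITGA6: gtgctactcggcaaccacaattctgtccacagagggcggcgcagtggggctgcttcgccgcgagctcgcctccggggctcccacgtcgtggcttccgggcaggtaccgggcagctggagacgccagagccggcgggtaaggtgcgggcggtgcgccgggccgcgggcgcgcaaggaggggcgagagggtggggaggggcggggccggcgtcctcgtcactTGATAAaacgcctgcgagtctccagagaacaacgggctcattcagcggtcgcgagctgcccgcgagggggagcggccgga
ITGA2: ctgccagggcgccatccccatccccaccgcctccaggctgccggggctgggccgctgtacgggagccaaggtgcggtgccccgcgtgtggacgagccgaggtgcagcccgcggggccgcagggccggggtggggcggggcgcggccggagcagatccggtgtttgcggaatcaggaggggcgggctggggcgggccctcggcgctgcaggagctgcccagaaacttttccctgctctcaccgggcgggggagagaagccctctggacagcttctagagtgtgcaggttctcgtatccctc
ITGB5: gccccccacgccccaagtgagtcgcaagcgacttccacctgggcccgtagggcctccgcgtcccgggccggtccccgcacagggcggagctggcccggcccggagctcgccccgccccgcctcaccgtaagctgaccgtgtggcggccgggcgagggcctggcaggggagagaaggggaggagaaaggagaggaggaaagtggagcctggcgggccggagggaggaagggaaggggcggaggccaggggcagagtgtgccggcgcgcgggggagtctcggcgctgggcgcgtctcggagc
The ITGA6 window holds TGATAA, whose first base is at position -30 from the start, and the ITGA2 and ITGB5 windows hold none of the searched letters. The table of promoters had 12 windows for 7 of the 10 subunits. Of those 12 windows, 4 held a match: both windows of ITGA6, 1 of ITGAV and 1 of ITGB1. Over all 35116 promoter windows in that table the share with a match was 25%. A match is only a run of letters, and no binding was measured.

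In control cells 6 of the 10 subunits had their highest mean in ARCaPM-DR and their lowest in 22Rv1-DR: ITGA2, ITGA3, ITGA6, ITGB1, ITGB4 and ITGB5. ITGB1 was the most abundant per kilobase of exon in every line. It averaged 8829 ± 628 normalised reads per kilobase in ARCaPM-DR, 1272.5 ± 174 in 22Rv1-DR and 5878.5 ± 512 in DU145-DR (SD, n = 3 each). In ARCaPM-DR, ITGA3, ITGA6 and ITGB4 followed with 2236 ± 758, 2064 ± 529 and 1735 ± 248 normalised reads per kilobase. The ranges of these 3 laminin receptor genes overlapped, so their order is not resolved. ITGA2 and ITGB5 came next at 949 ± 108 and 946 ± 85.1, then ITGAV and ITGA5 at 577 ± 114 and 505 ± 124, and the members of each pair overlapped. ITGB3 at 53.3 ± 17.9 and ITGB8 at 4.09 ± 2.50 were lowest in ARCaPM-DR.

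The order differed in the other lines. In 22Rv1-DR, ITGA5 at 412 ± 62.0 normalised reads per kilobase, ITGB5 at 356 ± 144 and ITGAV at 306 ± 56.2 stood behind ITGB1, with overlapping ranges, and ITGA3 at 149 ± 45.5 overlapped ITGA2 at 111 ± 9.85. ITGB4, ITGA6, ITGB8 and ITGB3 were at 2.55 to 6.09 per kilobase there, each overlapping its neighbour. These are small numbers of reads: ITGA6 had 92 reads in the 3 control libraries of 22Rv1-DR together, against 41288 in those of ARCaPM-DR. In DU145-DR, ITGB5 at 761 ± 161, ITGAV at 585 ± 58.5 and ITGA5 at 538 ± 45.3 normalised reads per kilobase overlapped in turn, ITGA6 at 408 ± 25.7 overlapped ITGA3 at 378 ± 91.1, and ITGA2 stood below them at 247 ± 35.6. ITGB3 at 53.3 ± 0.890 and ITGB4 at 47.3 ± 14.2 overlapped, and ITGB8 was nearly undetected at 0.184 ± 0.176 per kilobase, with 7 reads in all 3 DU145-DR controls.

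**Figure D1:**
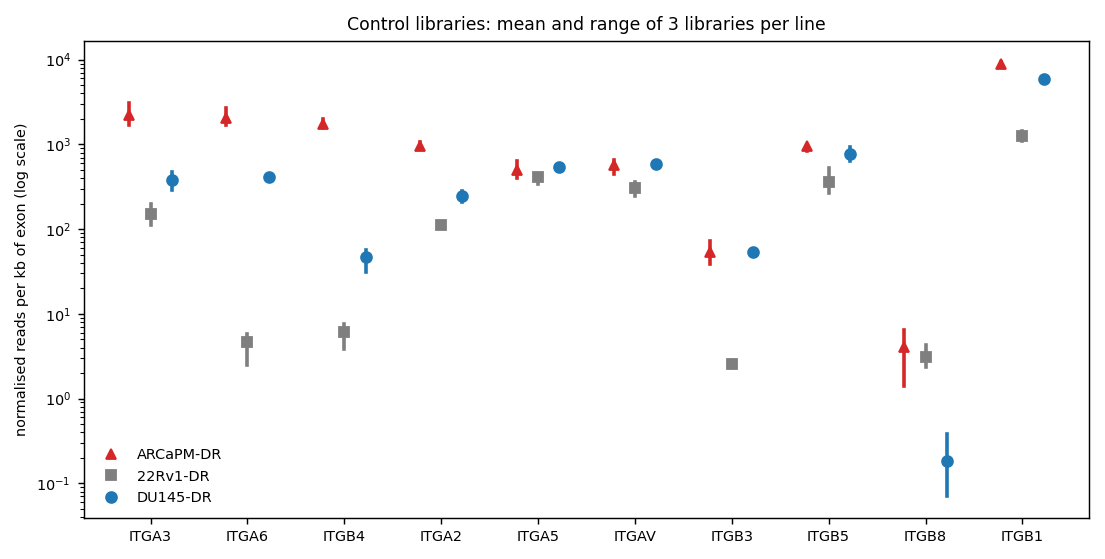
Normalised reads per kilobase of exon (log axis) of the 10 subunits in the control libraries of ARCaPM-DR (red), 22Rv1-DR (grey) and DU145-DR (blue), where each marker is the mean and each bar the range of 3 libraries. ITGB1 leads in all 3 lines, and ITGA6 and ITGB4 reach 2064 and 1735 per kilobase in ARCaPM-DR, against 4.67 and 6.09 in 22Rv1-DR.

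The test of levels between lines, limma over all 27 libraries with Benjamini-Hochberg adjustment and a threshold of 0.05, called 8 of 10 subunits higher in ARCaPM-DR than in 22Rv1-DR and 0 lower. In that comparison 70.3% of all genes were called. The log2 differences were largest for the hemidesmosome pair, 8.80 for ITGA6 (SE 0.28, adjusted p = 1.3e-18) and 8.16 for ITGB4 (SE 0.39, adjusted p = 2.0e-15). The median of all genes in this comparison was -0.11, against which these values stand. Between ARCaPM-DR and DU145-DR, where 59.9% of genes were called, 6 of 10 subunits were higher in ARCaPM-DR and 0 lower. ITGB4 had a log2 difference of 5.23 (SE 0.39), ITGA3 2.54 (SE 0.29), ITGA6 2.31 (SE 0.28), ITGA2 1.94 (SE 0.14) and ITGB1 0.59 (SE 0.14). ITGB8 also passed, on 138 reads in ARCaPM-DR controls against 7 in DU145-DR controls. Between 22Rv1-DR and DU145-DR, where 70.5% of genes were called, 8 subunits were lower and 1, ITGB8, was higher in 22Rv1-DR. ITGA5 was the only subunit that passed in none of these 3 comparisons, with adjusted p-values by limma of 0.214, 0.641 and 0.0794 in that order, and that does not show equal levels.

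**Figure D2:**
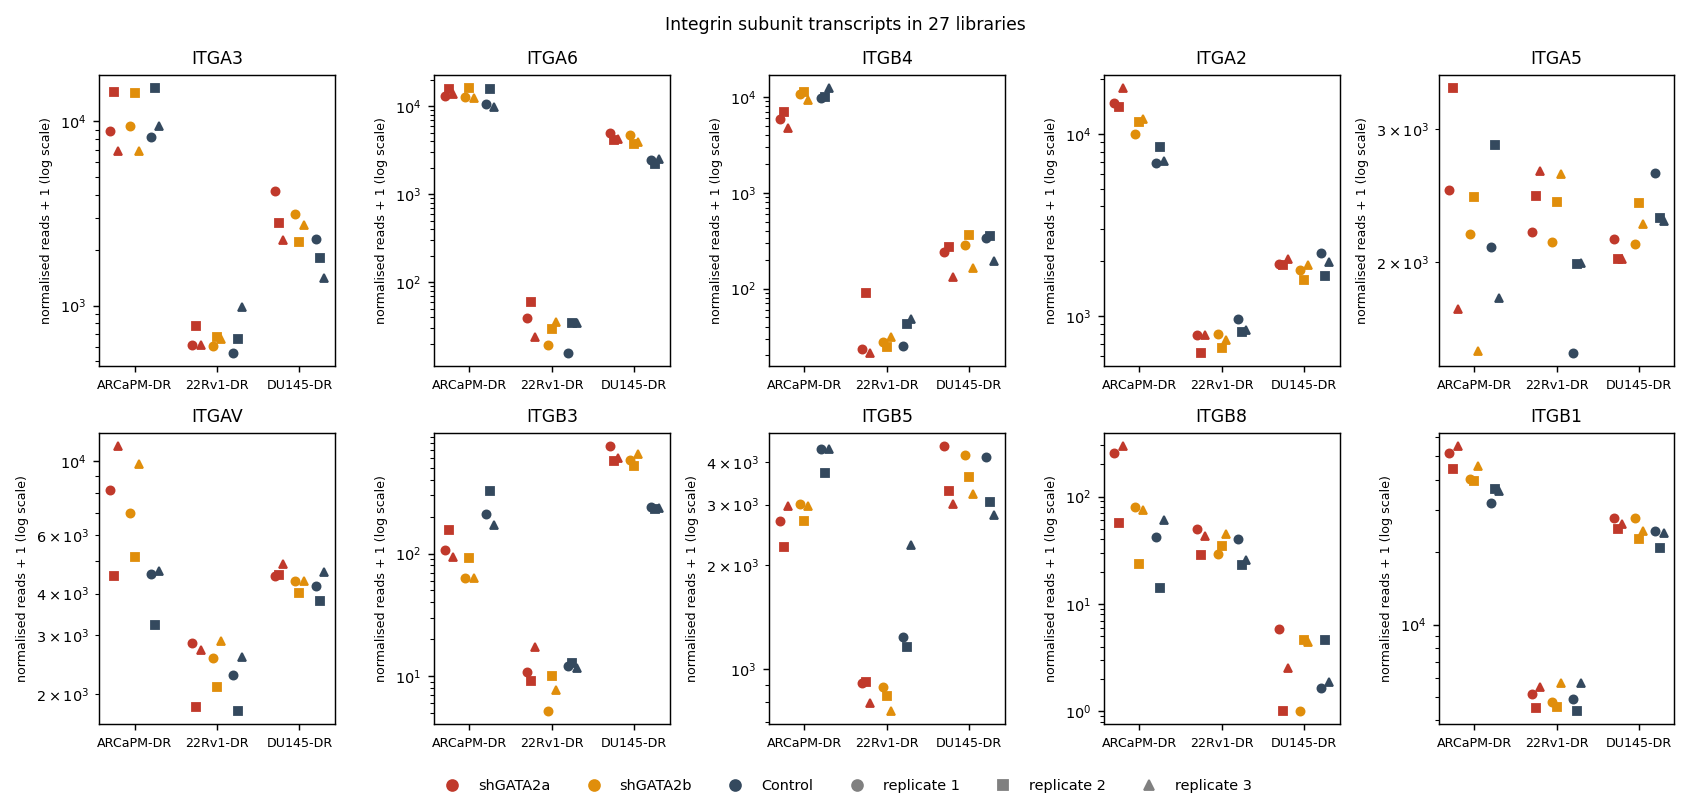
Normalised reads plus 1 (log axis) of each subunit in all 27 libraries, by line, with shGATA2a in red, shGATA2b in orange and Control in dark blue and a marker shape for each replicate number. The knockdown points of ITGB3 lie above the controls in DU145-DR and lie below them in ARCaPM-DR, and ITGA6 lies above the controls in DU145-DR.

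Subunits passed with knockdown of GATA2 in ARCaPM-DR and DU145-DR, and ITGB3 passed in both, in opposite directions. The contrast was the mean of both hairpins minus Control within a line, tested with limma on log2(value + 1), a scale that understates changes of low genes. In ARCaPM-DR, where 18.5% of 13079 genes passed, ITGA2 and ITGB1 rose and ITGB3, ITGB4 and ITGB5 fell, 5 of 10 subunits. In 22Rv1-DR, where 0.4% of 13757 genes passed, 0 of 10 subunits passed by limma. There 2 subunits, ITGA5 and ITGB5, had an unadjusted p under 0.05, and DESeq2 called 1, ITGB5, while edgeR called 0. With the replicate number as a block, 0 of 10 subunits passed in this line by limma, where 166 of 13757 genes did. In DU145-DR, where 16.7% of 13362 genes passed, ITGA3, ITGA6 and ITGB3 rose and 0 fell among 9 subunits tested without a replicate block. ITGB8 had too few reads to be tested. With the replicate number as a block, ITGB4 fell there too (adjusted p = 0.00842 by limma), where 5184 of 13362 genes passed. The median log2 fold change of the tested subunits was 0.12 in ARCaPM-DR, -0.05 in 22Rv1-DR and 0.13 in DU145-DR, against -0.00, -0.02 and -0.00 over all tested genes. With quantile normalisation the calls were 1 up and 3 down in ARCaPM-DR and 2 up and 0 down in DU145-DR.

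**Figure D3:**
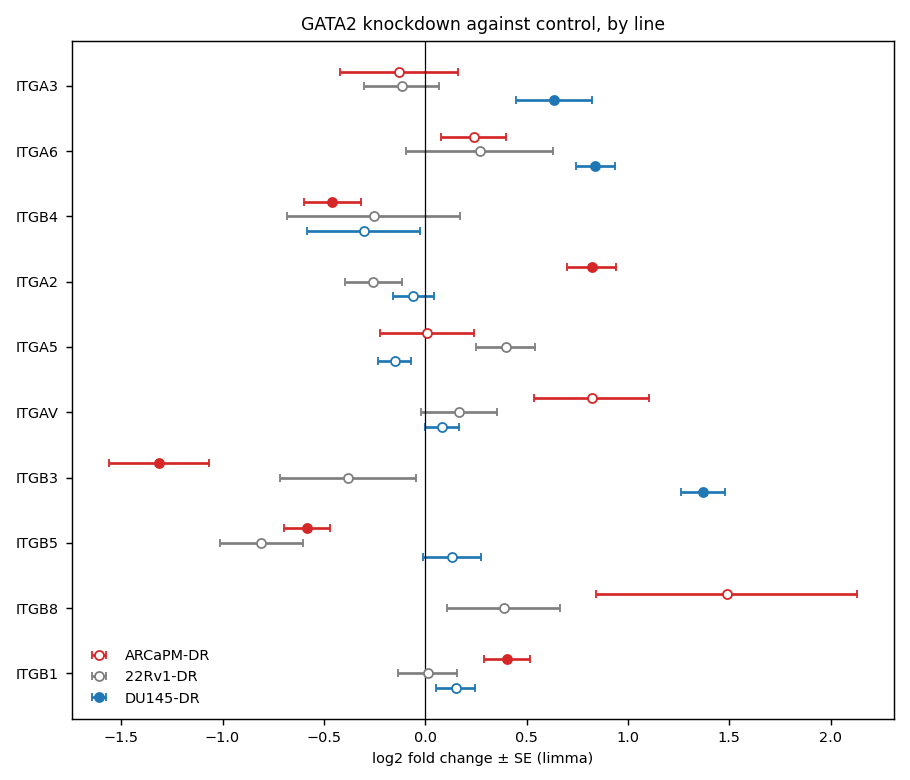
Log2 fold change of both hairpins together against Control (x axis, points with SE bars from limma) for each subunit in ARCaPM-DR (red), 22Rv1-DR (grey) and DU145-DR (blue). Filled points passed an adjusted p of 0.05 and open points did not, and the filled points of ITGB3 stand on opposite sides of 0, at -1.31 in ARCaPM-DR and 1.37 in DU145-DR.

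Among the laminin receptor genes, ITGA6 rose in DU145-DR. It had 4964, 4155 and 4210.2 normalised reads with shGATA2a and 4699.7, 3684 and 3959 with shGATA2b, against 2435, 2216 and 2502 with Control. All 6 knockdown libraries were above all 3 controls, as the libraries of 18.7% of genes in this line stood apart in either direction. The log2 fold change was 0.84 (SE 0.097, adjusted p = 3.3e-04 by limma), and the call held in all 20 alternative analyses. In ARCaPM-DR, where ITGA6 was already abundant, it ran from 12422 to 16271 in knockdown libraries against 9845 to 15586 in controls, and these overlapped (log2 fold change 0.24, SE 0.16, adjusted p = 0.327). Its level in 22Rv1-DR ran from 18.3 to 57.9 against 14.6 to 33.7 and did not pass (adjusted p = 0.795).

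ITGA3, the other laminin-binding alpha subunit, also rose in DU145-DR. It had 4165, 2789 and 2274 normalised reads with shGATA2a and 3117, 2199 and 2742 with shGATA2b, against 2308, 1816 and 1419 with Control. The groups overlapped, since only 4 of 6 knockdown libraries were above the highest control, but under every replicate number both hairpins were above the Control of that number. Its log2 fold change was 0.64 (SE 0.19, adjusted p = 0.0351 by limma), and with the replicate number as a block the adjusted p was 4.6e-06. Without the block, leaving out 1 library ended the call in 6 of 9 cases: adjusted p was 0.0505 and 0.0512 without shGATA2a replicate 1 or 2, 0.0705 and 0.0590 without shGATA2b replicate 1 or 3, and 0.109 and 0.118 without Control replicate 2 or 3. ITGA3 did not pass in ARCaPM-DR (log2 fold change -0.13, adjusted p = 0.787) or in 22Rv1-DR (-0.12, adjusted p = 0.826). In ARCaPM-DR its replicate 2 library was the highest of each arm, at 14417, 14134 and 15147 normalised reads with shGATA2a, shGATA2b and Control, against 6852 to 9458 in the other 6 libraries.

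ITGB4, the hemidesmosome partner of ITGA6, fell in ARCaPM-DR. It had 5873, 6903 and 4796 normalised reads with shGATA2a and 10695, 11348 and 9214 with shGATA2b, against 9722, 9978 and 12496 with Control. The shGATA2a libraries lay below every control, and those with shGATA2b overlapped the controls. The share of all genes with the libraries of 1 hairpin apart from the controls was not counted. The log2 fold change over both hairpins was -0.46 (SE 0.14, adjusted p = 0.0470 by limma), and it did not pass when any 1 library other than shGATA2a replicate 2 was left out (adjusted p from 0.0522 to 0.181). In DU145-DR ITGB4 ran from 132 to 360 against 191 to 351 with Control (-0.30 on the log2 scale, SE 0.28, adjusted p = 0.486). Replicate 3 was lowest there in every arm, and with the replicate number as a block the adjusted p was 0.00842. ITGB4 overlaps the gene GALK1, which is in the table, and the sources used here do not say whether strand was used in counting, so reads in the overlap cannot be told apart.

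ITGA2, the collagen-binding subunit, rose in ARCaPM-DR. It had 14799, 14042 and 17898 normalised reads with shGATA2a and 9948, 11544 and 12049.7 with shGATA2b, against 6884, 8448 and 7081 with Control. Every knockdown library was above every control, as 21% of genes in this line had all 6 on one side. Those with shGATA2a were above those with shGATA2b, and the share of genes with hairpins apart was not counted. The log2 fold change was 0.82 (SE 0.12, adjusted p = 0.00159 by limma), and the call held in all 20 alternative analyses. The fibroblast collagen COL3A1, one of 3 fibroblast markers listed, rose in the same line by 2.01 on the log2 scale (SE 0.41, adjusted p = 0.00878), and its part in the result was not tested. In 22Rv1-DR the ITGA2 level was 625 to 791 normalised reads in knockdown libraries against 819 to 962 in controls, all 6 below all 3, and did not pass (log2 fold change -0.26, SE 0.14, adjusted p = 0.540). In that line 6.94% of genes had all 6 knockdown libraries on one side of the controls. In DU145-DR, ITGA2 ran from 1576 to 2057 against 1652 to 2209 and overlapped (log2 fold change -0.06, adjusted p = 0.726).

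ITGA5, the fibronectin receptor subunit, passed in no line by limma. In 22Rv1-DR it had 2191, 2441 and 2640.04 normalised reads with shGATA2a and 2125, 2399 and 2613 with shGATA2b, against 1513, 1986 and 1994 with Control. All 6 knockdown libraries were above all 3 controls, as 6.94% of genes in this line had theirs on one side. The log2 fold change of 0.40 (SE 0.15, adjusted p = 0.408 by limma) did not pass. With the replicate number as a block the adjusted p was 0.0702 by limma. In ARCaPM-DR it had 1522 to 3402 in knockdown libraries against 1788 to 2857 in controls (log2 fold change 0.01, adjusted p = 0.985). In DU145-DR it had 2017 to 2391 against 2268 to 2624 (log2 fold change -0.15, SE 0.081, adjusted p = 0.218).

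ITGB3, the partner of ITGAV in the vitronectin receptor, moved in opposite directions in the lines. In DU145-DR it had 755, 570.1 and 599.7 normalised reads with shGATA2a and 583, 517 and 645 with shGATA2b, against 238, 230.3 and 234 with Control. Every knockdown library was above every control, where 18.7% of genes in this line had all 6 on one side. The log2 fold change was 1.37 (SE 0.11, adjusted p = 5.5e-05 by limma). In ARCaPM-DR it had 106, 154 and 93.3 with shGATA2a and 62.4, 91.5 and 62.1 with shGATA2b, against 209, 322 and 171 with Control. Here every knockdown library was below every control, as 21% of genes in this line had their 6 knockdown libraries on one side, and the log2 fold change was -1.31 (SE 0.25, adjusted p = 0.00567). Both calls held in all 20 alternative analyses of each line. In 22Rv1-DR ITGB3 was near the lower limit, at 4.17 to 16.2 normalised reads in knockdown libraries against 10.6 to 11.9 in controls (adjusted p = 0.680).

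ITGB5, another ITGAV partner, fell in ARCaPM-DR. It had 2689, 2252 and 2981 normalised reads with shGATA2a and 3010.3, 2692 and 2971 with shGATA2b, against 4344, 3705 and 4355 with Control. No knockdown library reached the lowest control, where 21% of genes in this line had all 6 on one side. The log2 fold change was -0.58 (SE 0.11, adjusted p = 0.00683 by limma), a call that held in all 20 alternative analyses. In 22Rv1-DR it had 909, 916 and 795 with shGATA2a and 882, 833 and 752 with shGATA2b, against 1233, 1154 and 2285 with Control. In this line 6.94% of genes had all 6 knockdown libraries on one side of the controls. Those of ITGB5 were again all below the controls, but Control replicate 3 was far above the other controls. This gave a log2 fold change of -0.81 (SE 0.20, adjusted p = 0.211 by limma) and of -0.50 (adjusted p = 0.203) without that library. With the replicate number as a block and all libraries the adjusted p was 0.107 by limma. DESeq2 called ITGB5 in this line (adjusted p = 0.0127), as did 1 limma fit of all 27 libraries (adjusted p = 0.0133). In DU145-DR it ran from 3007 to 4444 against 2804 to 4129.7 and did not pass (log2 fold change 0.13, adjusted p = 0.568).

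ITGAV itself did not pass in any line by limma without a replicate block. In ARCaPM-DR it had 8183, 4529 and 11116 normalised reads with shGATA2a and 7006, 5138 and 9816 with shGATA2b, against 4595, 3217 and 4669.7 with Control. Replicate 2 was the lowest of each arm, and 5 of 6 knockdown libraries were above every control. The log2 fold change was 0.82 (SE 0.28, adjusted p = 0.0715 by limma), and the adjusted p was 0.00840 without shGATA2a replicate 2, 0.0463 without shGATA2b replicate 2 and 0.0155 by DESeq2. The log2 fold change was 0.17 (SE 0.19) in 22Rv1-DR and 0.08 (SE 0.083) in DU145-DR.

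ITGB8, the subunit linked to TGF-beta activation, had the highest estimate in ARCaPM-DR and the widest error. It had 253, 55.7 and 295 normalised reads with shGATA2a and 79.7, 22.6 and 74.6 with shGATA2b, against 41.0, 13.1 and 58.9 with Control. Replicate 2 was again the lowest of each arm, and 4 of 6 knockdown libraries were above every control. Its log2 fold change was 1.49 (SE 0.64, adjusted p = 0.136 by limma), with an adjusted p of 0.0254 without shGATA2a replicate 2 and 0.0353 by DESeq2. Counts were low, 492 reads in the 6 knockdown libraries together against 138 in the 3 controls. In 22Rv1-DR it had 27.8 to 48.9 normalised reads in knockdown libraries against 21.8 to 39.6 in controls (log2 fold change 0.39, SE 0.28, adjusted p = 0.615). In DU145-DR there were 16 reads in all 6 knockdown libraries against 7 in the 3 controls, so no difference was detectable at this depth.

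ITGB1, the common beta partner, rose in ARCaPM-DR by a smaller amount. It had 51685, 44462 and 55225 normalised reads with shGATA2a and 40263, 39521 and 45686 with shGATA2b, against 31882, 36489 and 35724 with Control. All 6 knockdown libraries were above all 3 controls, as 21% of genes in this line had theirs on one side. The log2 fold change was 0.40 (SE 0.11, adjusted p = 0.0355 by limma). Leaving out any 1 library other than shGATA2a replicate 2 or shGATA2b replicate 2 ended the call (adjusted p from 0.0612 to 0.144), and quantile normalisation gave 0.21 (adjusted p = 0.203). In 22Rv1-DR, ITGB1 ran from 4503 to 5692 against 4364 to 5726, a log2 fold change of 0.01 (SE 0.15). In DU145-DR it ran from 22613 to 27828 against 20791 to 24467, a log2 fold change of 0.15 (SE 0.096, adjusted p = 0.304).

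Each hairpin was also set against the same 3 Control libraries of its line, so the comparisons share their controls. In ARCaPM-DR, shGATA2a called 4 of 10 subunits, where 12.8% of genes passed, and shGATA2b called 3, where 14.5% passed. ITGB3 had a log2 fold change of -0.97 with shGATA2a (SE 0.28, adjusted p = 0.0520) and -1.66 with shGATA2b (SE 0.28, adjusted p = 0.00452). ITGB5 fell with both, by 0.65 and 0.51 on the log2 scale (SE 0.13 each, adjusted p = 0.0109 and 0.0277). The shGATA2b call of ITGB5 was lost without any of 6 single libraries (adjusted p from 0.0526 to 0.0976), and the shGATA2a call without Control replicate 1 (adjusted p = 0.0521). ITGA2 rose with both, by 1.06 with shGATA2a (SE 0.14, adjusted p = 0.00125) and 0.58 with shGATA2b (SE 0.14, adjusted p = 0.0213), the second call being lost without Control replicate 1 or 3 or shGATA2b replicate 2 or 3 (adjusted p from 0.0606 to 0.0842). ITGB1 rose with shGATA2a by 0.54 (SE 0.13, adjusted p = 0.0255) and stood at 0.27 with shGATA2b (SE 0.13, adjusted p = 0.206).

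ITGB4 showed the clearest gap between the hairpins in ARCaPM-DR. With shGATA2a it fell by 0.88 on the log2 scale (SE 0.16, adjusted p = 0.00724 by limma), while with shGATA2b the log2 fold change was -0.04 (SE 0.16, adjusted p = 0.904). The direct test of shGATA2b against shGATA2a gave 0.84 (SE 0.16, adjusted p = 0.0501 by limma), just outside the threshold, and 2.6e-04 by DESeq2. All 3 shGATA2b libraries were above all 3 shGATA2a libraries, and the share of all genes whose hairpins stood apart was not counted. In this comparison 0.803% of genes passed and 0 of 10 subunits did by limma, with 3 at an unadjusted p under 0.05 and 0 by edgeR. For ITGA2 and ITGB3 every shGATA2b library was below every shGATA2a library, again without a share over all genes. Their log2 differences of -0.48 (SE 0.14, adjusted p = 0.184 by limma) and -0.69 (SE 0.28, adjusted p = 0.387) did not pass. GATA2 itself had a log2 difference of -0.75 between shGATA2b and shGATA2a in this line (SE 0.25, adjusted p = 0.257).

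In DU145-DR, shGATA2a called 3 of 9 subunits, where 16.1% of genes passed, and shGATA2b called 2, where 5.81% passed. ITGB3 rose by 1.44 with shGATA2a (SE 0.13, adjusted p = 1.5e-04) and by 1.302 with shGATA2b (SE 0.13, adjusted p = 3.9e-04) on the log2 scale. ITGA6 rose by 0.89 and 0.78 (SE 0.11 each, adjusted p = 7.1e-04 and 0.00279). ITGA3 rose with shGATA2a by 0.72 (SE 0.21, adjusted p = 0.0394) and stood at 0.55 with shGATA2b (SE 0.21, adjusted p = 0.146). With the replicate number as a block, ITGA3 passed with shGATA2b too (adjusted p = 2.7e-04), and ITGA5 and ITGB4 were lower with shGATA2a (adjusted p = 0.0358 and 9.7e-04), which makes 5 subunits for shGATA2a. More of all genes passed with that block as well, 5089 of 13362 with shGATA2a and 3515 with shGATA2b. Between shGATA2b and shGATA2a in DU145-DR 0% of genes passed by limma. There 0 of 9 subunits passed, with 0 at an unadjusted p under 0.05 and 0 by edgeR and DESeq2.

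In 22Rv1-DR, shGATA2a called 0 of 10 subunits and shGATA2b called 0 by limma, where 0% and 0.00727% of genes passed. ITGB5 had a log2 fold change of -0.76 with shGATA2a and -0.85 with shGATA2b (SE 0.24 each, adjusted p = 0.509 and 0.429). ITGA5 had 0.41 and 0.38 (SE 0.17 each), and these 2 genes were the ones at an unadjusted p under 0.05 with each hairpin. DESeq2 and edgeR called 0 subunits with either hairpin. Between the hairpins 0% of genes and 0 of 10 subunits passed in this line by limma, with 0 at an unadjusted p under 0.05.

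**Figure D4:**
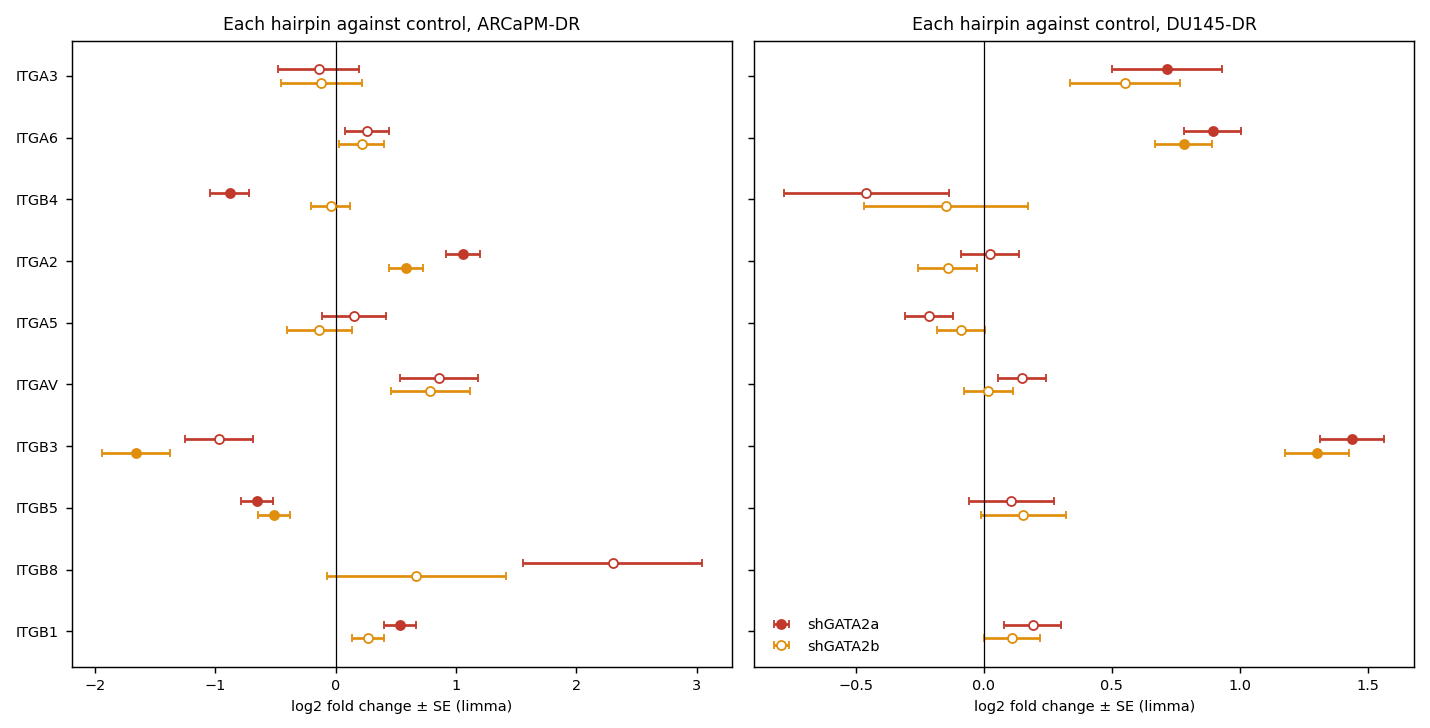
Log2 fold change against Control (x axis, points with SE bars from limma) of each subunit with shGATA2a (red) and shGATA2b (orange) in ARCaPM-DR and in DU145-DR. Filled points passed an adjusted p of 0.05 and open points did not, and the hairpins lie furthest apart, relative to their errors, for ITGB4 in ARCaPM-DR.

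Whether the response differed between lines was tested directly in the fit of all 27 libraries. For ARCaPM-DR minus DU145-DR, where 7.13% of genes passed, 2 of 10 subunits did. The ITGB3 effect differed by -2.68 (SE 0.34, adjusted p = 1.5e-05 by limma) and the ITGA2 effect by 0.88 (SE 0.17, adjusted p = 0.00141). For ARCaPM-DR minus 22Rv1-DR, where 3.39% passed, the ITGA2 effect differed by 1.08 (SE 0.17, adjusted p = 4.9e-04) and was the only 1 of 10 to pass. ITGB3 had -0.93 there (SE 0.34, adjusted p = 0.142). For 22Rv1-DR minus DU145-DR, where 1.09% passed, ITGB3 was the only 1, at -1.75 (SE 0.34, adjusted p = 0.0103).

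For other subunits that passed in 1 line, the difference between lines did not pass without a replicate block. The ITGA6 effect in ARCaPM-DR minus that in DU145-DR was -0.60 (SE 0.34, adjusted p = 0.344), and the ITGB5 effect differed by -0.71 (SE 0.24, adjusted p = 0.0771). The ITGB5 effect in 22Rv1-DR minus that in DU145-DR was -0.94 (SE 0.24, adjusted p = 0.0582). With the replicate number as a block, this comparison of lines called 4 subunits, ITGB3 together with ITGB5 (adjusted p = 0.00595), ITGA3 (-0.75, adjusted p = 0.0208) and ITGA5 (0.55, adjusted p = 0.00394). Of all 15295 genes, 1571 passed in this comparison with the block, against 166 without it.

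The genes around the integrins were described by lists of known members. Their counts stand beside 9.86% of all tested genes that rose and 8.62% that fell in ARCaPM-DR, and 8.72% and 7.98% in DU145-DR. Of 16 other integrin subunits, 8 were tested in ARCaPM-DR, where ITGA1 rose by 0.40 (SE 0.10, adjusted p = 0.0232) and 0 fell. In DU145-DR 11 were tested and ITGA1 fell by 0.62 on the log2 scale (SE 0.16, adjusted p = 0.0189), with 0 up. ITGA1 is a collagen-binding partner of ITGB1, and it averaged 4835 ± 1321 normalised reads in ARCaPM-DR knockdown libraries against 3557 ± 327 in controls. In DU145-DR it averaged 128 ± 20.4 against 197 ± 31.4 (SD, n = 6 and 3). The list medians were 0.22 in ARCaPM-DR and 0.02 in DU145-DR.

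Ligand genes moved as follows. Of laminins, which ITGA3 and ITGA6 receptors bind, 1 of 7 tested rose and 0 fell in ARCaPM-DR, LAMC1 at 0.52 (SE 0.11, adjusted p = 0.0124), with a list median of 0.04. In DU145-DR 3 of 10 rose, LAMA2 at 1.13 (SE 0.31), LAMB3 at 0.62 (SE 0.18) and LAMB1 at 0.38 (SE 0.10), and 1 fell, LAMC3 at -0.58 (SE 0.16), with a median of 0.12. Of the other ligands, 1 of 18 rose and 1 fell in ARCaPM-DR: SPP1, the gene of osteopontin, at 0.93 (SE 0.11, adjusted p = 5.7e-04) and TGFB1 at -0.56 (SE 0.15, adjusted p = 0.0292). SPP1 ran from 13866 to 22845 normalised reads in knockdown libraries against 8259 to 9883 in controls of ARCaPM-DR. In DU145-DR 4 of 20 rose and 3 fell, among them TNC, the matrix protein tenascin-C, at 1.36 (SE 0.16, adjusted p = 3.9e-04), TGFB2 at 1.28 (SE 0.27), COL1A1 at -0.74 (SE 0.18) and TGFB1 at -0.67 (SE 0.14). The medians of this list were 0.26 in ARCaPM-DR and -0.10 in DU145-DR.

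Inside the cell, integrin tails are tied to actin by activators, adaptors and focal adhesion proteins. Of 16 activators and adaptors tested, 2 rose and 3 fell in ARCaPM-DR with a median of -0.04, and 2 rose and 0 fell in DU145-DR with a median of 0.06. ITGB1BP1, which binds the ITGB1 tail, fell by 1.08 in ARCaPM-DR (SE 0.14, adjusted p = 7.2e-04), at 258 ± 34.0 normalised reads in knockdown libraries against 543 ± 27.99 in controls. The endocytic adaptor DAB2 rose by 1.46 there (SE 0.37), TLN2, a talin, by 0.68 (SE 0.15), and the actin cross-linker FLNA fell by 0.63 (SE 0.19). DAB2 was low, at 11.7 to 29.9 normalised reads in knockdown libraries against 3.97 to 7.89 in controls. In DU145-DR TNS1, a tensin, rose by 1.04 (SE 0.21).

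Of 21 focal adhesion scaffolds and kinases, 4 rose and 3 fell in each of ARCaPM-DR and DU145-DR, where 18.5% and 16.7% of all tested genes passed, with medians of -0.24 and 0.11. The adaptor CRK rose by 1.14 in ARCaPM-DR (SE 0.10, adjusted p = 1.3e-04) and by 0.75 in DU145-DR (SE 0.091, adjusted p = 4.0e-04). PARVA, which links integrins to actin, rose by 0.82 (SE 0.14) and 0.67 (SE 0.098), and ZYX, the zyxin gene, had -0.83 (SE 0.24) and -0.75 (SE 0.17) in the same order of lines. The actin regulator VASP fell by 1.32 in ARCaPM-DR (SE 0.17, adjusted p = 8.0e-04), and TGFB1I1 fell by 0.59 in DU145-DR (SE 0.13, adjusted p = 0.00839).

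Of 11 hemidesmosome and tetraspanin partners, 3 rose and 3 fell in ARCaPM-DR, with a median of -0.18, and 3 rose and 0 fell in DU145-DR, with a median of 0.22. COL17A1, a hemidesmosome collagen that works with ITGB4, rose by 0.58 in ARCaPM-DR (SE 0.18, adjusted p = 0.0466) and by 1.25 in DU145-DR (SE 0.17, adjusted p = 9.3e-04). In DU145-DR it had 99.0 to 197 normalised reads in knockdown libraries against 60.5 to 67.0 in controls. The tetraspanin CD82 fell by 1.10 in ARCaPM-DR (SE 0.22) and BSG by 0.88 (SE 0.15), while DST rose by 0.63 (SE 0.16). In DU145-DR CAV1 rose by 0.37 (SE 0.073) and the tetraspanin CD9 by 0.36 (SE 0.10). In 22Rv1-DR, where only 0.4% of all tested genes passed, 0 members of these 6 lists passed by limma in either direction. The list medians there ran from -0.23 to -0.03.

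**Figure D5:**
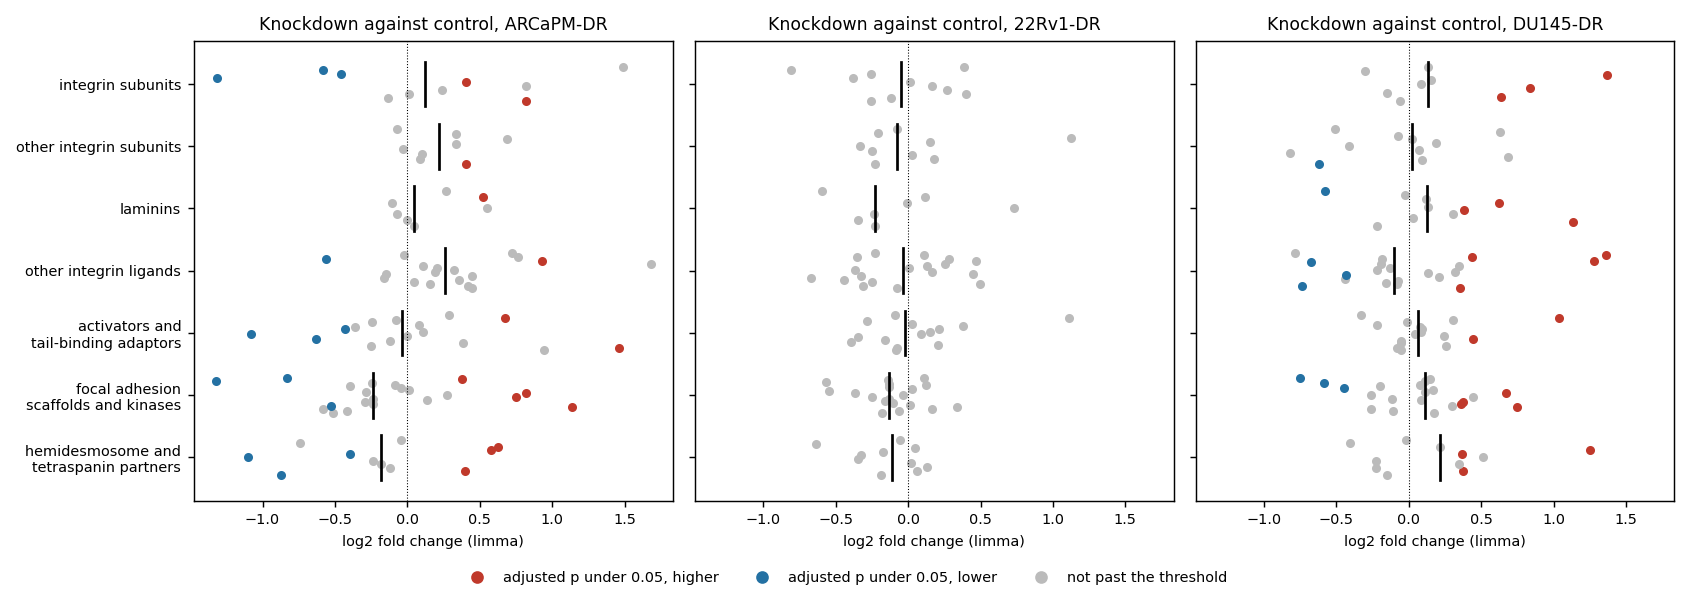
Log2 fold change of knockdown against Control (x axis, limma) for every tested gene of the subunits and of 6 related lists in ARCaPM-DR, 22Rv1-DR and DU145-DR, 1 point a gene, with a black bar at the median of each list. Red points passed an adjusted p of 0.05 with a higher level and blue points with a lower one. In 22Rv1-DR, where 0.4% of all tested genes passed, every point is grey.

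For the 7 subunits that passed in at least 1 line, the genes with the most similar pattern were taken by the root mean square difference of line-centred log2 values over the 27 libraries, among 15294 genes. ITGB3 was nearest to LRP11 and ZNF510, with differences of 0.404 and 0.407 against its own spread of 0.637. LRP11 fell by 1.27 in ARCaPM-DR (SE 0.14, adjusted p = 3.6e-04) and rose by 0.32 in DU145-DR (SE 0.10, adjusted p = 0.0484), where ITGB3 rose by 1.37. ITGA2 was nearest to SETDB2 (0.136) and DPY19L1 (0.145), with an own spread of 0.292. ITGB1 was nearest to MAP4K3 (0.0942) and WDR41 (0.102), with an own spread of 0.178. ITGB5 was nearest to LMNB2 (0.164) and FAM82A2 (0.177), with an own spread of 0.347. ITGA6 was nearest to FRMD6 (0.255) and CYP26B1 (0.287), against 0.416, and ITGA3 to SPATA20 (0.167) and CTSZ (0.196), against 0.37. ITGB4 was nearest to CCDC94 (0.317) and SCAF1 (0.328), against 0.527. Not all of these genes shared the calls. In DU145-DR FRMD6, CYP26B1, SPATA20, CTSZ and ZNF510 did not pass (adjusted p from 0.0631 to 0.372 by limma). In ARCaPM-DR CCDC94, SCAF1 and WDR41 did not (0.923, 0.270 and 0.0582), while ZNF510, SETDB2, DPY19L1, MAP4K3, LMNB2 and FAM82A2 passed. These 27 libraries share 3 lines and their replicate numbers, so the likeness is a description.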

How the data were processed

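Total RNA was sequenced in 27 libraries, 3 in each of 9 groups. Per the submitters' processing notes, the reads went through TopHat2 (2.0.9) and Cufflinks (1.3.0) on hg19, that is GRCh37. The sources used here do not give the counter, the scaling tool or the use of strand. The authors deposited 1 table of signal, read counts per gene divided by 1 size factor per library, as found from the values: dividing by each library's step gave whole reads for 99.954% of 433407 values above 0 (tolerance 0.005 reads). A count of 0 allows up to 3 reads, counting error only. Replicates spread further apart than counting noise (chi-square per degree of freedom 5.6 to 95.1).

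Genes reaching a value of 10 in 3 or more libraries of a fit were tested with limma (version 3.58.1, R 4.3.3, mean-variance trend) on log2(value + 1), each line alone for the knockdown and all 27 libraries together for comparisons of lines. All tests were 2-sided, with Benjamini-Hochberg adjustment over all genes tested and a threshold of 0.05. "Rose", "fell" and "passed" mean past it. Alternatives were edgeR (version 4.0.16) and DESeq2 (version 1.42.0) on recovered reads, other pseudocounts, filters and scalings, a replicate block, other samples in the fit and leaving out each library. The procedure was tested on simulated counts of DU145-DR, with independent replicates and changes larger than most of those called here. That test does not cover replicates that deviate together, or smaller changes.

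Same-numbered libraries deviated together in DU145-DR (lowest correlation 0.28, median 0.39) and 22Rv1-DR (0.21 and 0.41), which met the rule for pairs. The main fits of every line held no replicate block, so their p-values are unpaired. Pairing entered only where a replicate block is named. The pairing comes from the data, not the labels, and in ARCaPM-DR the lowest correlation of 0.06 was under the minimum of 0.1, though the median was 0.58.

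The members and gene lists were chosen with earlier results of these data known. All 10 members are named, with up to 4 genes past the threshold of each list and line and the 2 most similar genes of each member that passed. Exon lengths came from GENCODE and promoters from RefSeq. Promoters of ITGA3, ITGB3 and ITGB4 are not used here. Values of some listed genes are not reported here.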

Additional observations from a re-analysis of the deposited data

Results flagged for a closer look

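The knockdown response of 2 subunits differed between lines in the test of the difference itself, by limma over all 27 libraries. ITGB3 had a difference in log2 fold change of -2.68 between ARCaPM-DR and DU145-DR (adjusted p = 1.5e-05). It was lower than Control in 6 of 6 ARCaPM-DR knockdown libraries and higher in 6 of 6 of DU145-DR. Of all tested genes, 21% in ARCaPM-DR and 18.7% in DU145-DR had all 6 knockdown libraries on one side of the controls. Between 22Rv1-DR and DU145-DR the ITGB3 difference was -1.75 (adjusted p = 0.0103). In 22Rv1-DR, ITGB3 rested on 60 reads in the 6 knockdown libraries against 38 in the 3 controls. ITGA2 had a difference of 0.88 between ARCaPM-DR and DU145-DR (adjusted p = 0.00141) and of 1.08 between ARCaPM-DR and 22Rv1-DR (adjusted p = 4.9e-04). It was above Control in 6 of 6 ARCaPM-DR knockdown libraries and below it in 6 of 6 of 22Rv1-DR. Within 22Rv1-DR the ITGA2 change did not pass (log2 fold change -0.26, adjusted p = 0.540 by limma), and 6.94% of genes there stood apart from controls.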

How the results depend on the processing

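Of 4584 re-estimates of a subunit in a comparison, 4456 stayed on their side of the threshold, 60 lost a call, 68 gained one and 0 turned a called direction round. Counts of subunits past the threshold moved by over 1.5 times as follows, and except where the setting itself shows it the cause was not tested. With the replicate block the knockdown called 8 subunits in ARCaPM-DR (5 without it), shGATA2a 8 there and 5 in DU145-DR, shGATA2b 6 in ARCaPM-DR and the hairpins against each other 4. The line differences with the block were 5 for ARCaPM-DR minus DU145-DR, 5 for ARCaPM-DR minus 22Rv1-DR and 4 for 22Rv1-DR minus DU145-DR. The block changed no other count of subunits by that much. More of all genes passed with the block too. In ARCaPM-DR 5885 of 13079 genes passed with the knockdown (2418 without it), 5223 with shGATA2a, 5278 with shGATA2b and 1629 between the hairpins. In DU145-DR 5089 of 13362 passed with shGATA2a. For the line differences, in the order above, 3138, 2280 and 1571 of 15295 genes passed. In ARCaPM-DR the numbers missed the rule for pairs by their lowest correlation, although 7 of 9 libraries correlated best with their own number and the median was 0.58, against -0.26 between different numbers. There the block added ITGAV (adjusted p = 3.4e-06), ITGB8 (3.0e-06) and ITGA6 (0.0273) to the knockdown calls, and ITGB5 (0.0158), ITGA3 (0.00946) and ITGAV (7.6e-04) to ARCaPM-DR minus DU145-DR. Without a filter on low values the ARCaPM-DR knockdown count was 3. The count of the hairpins against each other in ARCaPM-DR was 1, ITGB4, with a filter of 50, with median of ratios scaling, with DESeq2 and without the 58 genes that hold values other than whole reads. DESeq2 also gave 7 for shGATA2a in ARCaPM-DR, 1 for the knockdown in 22Rv1-DR and 2 for 22Rv1-DR minus DU145-DR, where edgeR gave 2 as well. With all 27 libraries in 1 fit the count was 1 for the knockdown in 22Rv1-DR, 1 for each hairpin in DU145-DR and 1 for shGATA2b in 22Rv1-DR.

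Leaving out 1 library gave 2 to 3 subunits for the knockdown in DU145-DR, 3 to 7 in ARCaPM-DR and 0 in 22Rv1-DR. It gave 2 to 7 for shGATA2a, 1 to 4 for shGATA2b and 0 to 1 for the hairpins against each other in ARCaPM-DR, and 1 to 2 for 22Rv1-DR minus DU145-DR. The count of 7 came without ARCaPM-DR shGATA2a replicate 2. Over all genes the ARCaPM-DR knockdown count ran from 1179 to 3545 and that of DU145-DR from 857 to 2440. Depth limits ITGB8 in DU145-DR, and ITGA6, ITGB3, ITGB4 and ITGB8 in 22Rv1-DR, which had few reads in every arm.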
